A study of Homo sapiens with 6 samples.

Results

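The cadherin and protocadherin genes of TC71 cells were compared between EHD1-depleted and control cells. Members were the genes whose symbol was CDH or PCDH followed by a number, with the cluster letters A, B, C or G allowed in between, which gave 88 genes of the 60676 in the count table. TC71 is a Ewing sarcoma cell line. The study placed in it a lentiviral shRNA under Dox control, directed either at EHD1 (shEHD1), an endocytic recycling protein, or at no human gene (shNTC), and selected mixed populations with puromycin. All 6 RNA-seq libraries, 3 of shNTC+Dox and 3 of shEHD1+Dox, came from cells kept in 0.5 µg/ml Dox for 3 days, so both groups carried an integrated vector and received the same drug. The sources do not say which of the study's EHD1 shRNAs was used or whether the libraries came from separate cultures, so p-values measure the spread between these libraries, which may be technical.

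Cadherins are calcium-dependent adhesion proteins that span the plasma membrane and pair with cadherins of the neighbouring cell. Type I and type II cadherins bind catenins through their cytoplasmic tail and so reach the actin cytoskeleton. Protocadherins lack that catenin-binding tail. The non-clustered protocadherins stand alone in the genome, whereas the alpha, beta and gamma protocadherins lie in 3 tandem clusters on the long arm of chromosome 5. In the alpha and gamma clusters each variable first exon has its own promoter and is spliced to the same constant exons. Ewing sarcoma cells grow as small round cells with few epithelial features, and cadherins, like other membrane proteins, are taken up and recycled through endosomes.

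Between 22711235 and 28203023 reads were counted per shNTC+Dox library, and from 24150135 to 30582187 per shEHD1+Dox library. Levels are given as CPM, the depth-scaled count of a gene, with library sizes corrected by TMM. EHD1 itself was 27.1, 28.0 and 26.4 CPM in shNTC+Dox against 7.55, 7.15 and 9.37 CPM in shEHD1+Dox, which left 29.6% of the control level (log2 fold change -1.76, SE 0.12, edgeR adjusted p = 1.355e-04). All 10 Ewing sarcoma markers were detected. Epithelial markers summed to 0.684 to 0.896 CPM in shNTC+Dox against 0.667 to 1.31 CPM in shEHD1+Dox, with KRT5, KRT14 and GRHL2 at 0 counts. Endothelial markers summed to 10.8 to 21.3 and 15.3 to 17.9 CPM, and EMCN held nearly all of it while KDR and TEK were at 0. Blood markers reached at most 0.403 CPM and muscle markers at most 0.152 CPM in any library. On the second principal component, which held 22.0% of the variance of all genes, shNTC+Dox replicate 3 lay at -38.7 while the other controls lay at 32.8 and 29.1. Values without this library are given below where they changed a call, and for some other members.

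Of the 88 members, 60 had at least 10 counts in at least 3 libraries and were tested, and 28 did not reach that depth. The tests ran over all 16785 genes that passed this filter, by the quasi-likelihood test of edgeR, with p-values adjusted after Benjamini and Hochberg. At an adjusted p under 0.05, 5 of the 60 members changed (8.33%), 3 of them upwards and 2 downwards, against 17.3% of all genes tested. CDH11 and CDH3 fell by at least 2-fold, 2 of 60 members (3.33%), against 2.82% of all genes. The 3 libraries of a group lay wholly above or below those of the other group for 15 members (25.0%), 9 higher and 6 lower in shEHD1+Dox, against 39.3% of all genes. These shares are given as a description, and their difference from the whole table was not tested. At an unadjusted p under 0.05 there were 12 of the 60 members, against 5428 of the 16785 genes tested. The median log2 fold change was 0.05 over the members and 0.0008 over all genes, and the median size of the log2 fold change was 0.35 and 0.23. The median biological coefficient of variation was 27.98% over the members and 13.33% over all genes, which were not matched for level. Families with more than 1 tested member were also set beside the trend over all genes at their level. The median was above that of the trend for the gamma cluster (62.4 and 30.5%). It was slightly below for the alpha (25.9 and 26.88%) and beta clusters (29.88 and 33.33%), non-clustered protocadherins (15.26 and 15.71%) and type II cadherins (12.02 and 12.25%).

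The 5 members that passed were 3 type II cadherins (CDH11, CDH10 and CDH8), 1 type I cadherin (CDH3) and 1 non-clustered protocadherin (PCDH18). No member of the 3 clusters passed.

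**Figure D1:**
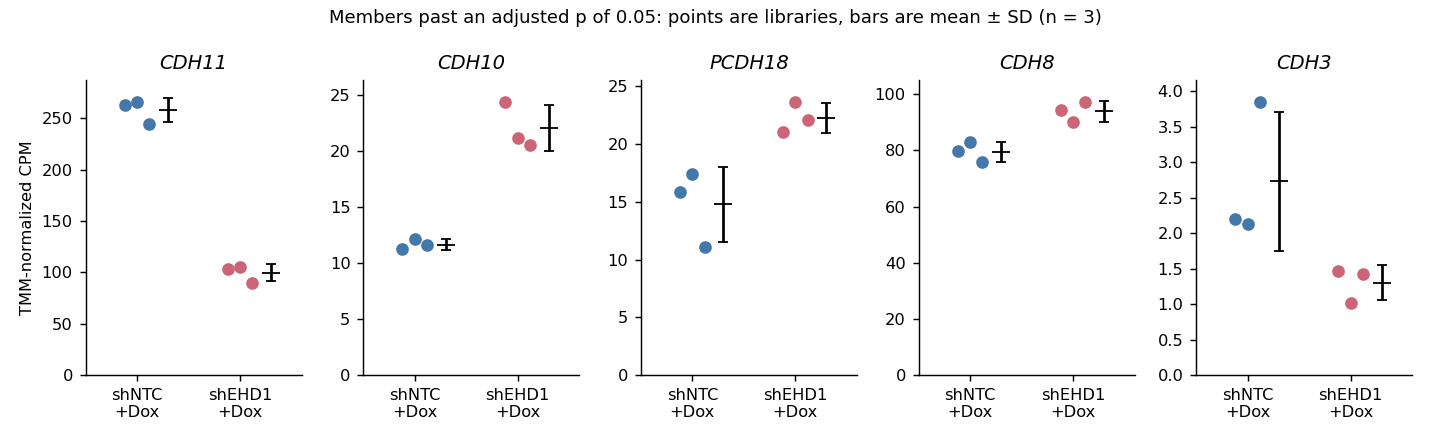
TMM-normalized CPM (vertical axes, linear from 0, each gene on its own scale) of the 5 members past an adjusted p of 0.05, with 1 point per library and bars at the mean ± SD of 3 libraries. The groups do not overlap for any of the 5, and the gap relative to the spread is widest for CDH11, which lies between 244.7 and 266.0 CPM in shNTC+Dox and between 90.1 and 105.3 CPM in shEHD1+Dox.

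CDH11 showed the clearest change of the family. It encodes cadherin-11 (OB-cadherin), a type II cadherin of mesenchymal and osteoblastic cells, and lies on chromosome 16 (GRCh38, chr16:64943753-65126112, minus strand). Its counts were 6910, 7364 and 5464 in shNTC+Dox against 2944, 2577 and 2790 in shEHD1+Dox. On the scaled level these were 262.6, 266.0 and 244.7 CPM against 103.4, 105.3 and 90.1 CPM, so every control library was above every shEHD1+Dox library. CDH11 was 2.59-fold lower in shEHD1+Dox (log2 fold change -1.37, SE 0.08, edgeR adjusted p = 5.08e-05). An exact permutation test of the 3 against 3 libraries gave p = 0.1, two-sided, the smallest that this design allows. The fall held under all 12 alternatives tried, with log2 fold changes from -1.41 to -1.30. Of its annotated exon bases, 1.9% overlapped another gene.

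CDH10 rose. It encodes a type II cadherin best known from brain and lies at chr5:24487100-24644978, minus strand. Counts were 296, 337 and 260 in shNTC+Dox against 696, 519 and 638 in shEHD1+Dox. Levels were 11.2, 12.2 and 11.6 CPM against 24.4, 21.2 and 20.6 CPM. CDH10 was thus 1.89-fold higher (log2 fold change 0.92, SE 0.11, edgeR adjusted p = 0.00114), short of a 2-fold change, and it passed the adjusted p under all 12 alternatives, with log2 fold changes from 0.84 to 0.97.

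CDH8, another type II cadherin of the nervous system, rose by a small amount. It lies at chr16:61647242-62037035, minus strand, and was 79.8, 82.9 and 75.9 CPM in shNTC+Dox against 94.5, 90.01 and 97.3 CPM in shEHD1+Dox. The groups did not overlap, and the level was 1.18-fold higher (log2 fold change 0.24, SE 0.07, edgeR adjusted p = 0.0412). The call was lost in 5 of 12 alternatives, among them the fits without shNTC+Dox replicate 1, shNTC+Dox replicate 2, shEHD1+Dox replicate 1 and shEHD1+Dox replicate 3, where the adjusted p ran from 0.0669 to 0.1497. The 4 fits in question kept the direction, with log2 fold changes from 0.21 to 0.27.

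The other type II cadherins that were tested did not pass. CDH12, also of the nervous system, was 77.9, 70.8 and 43.3 CPM in shNTC+Dox against 81.8, 81.8 and 81.9 CPM in shEHD1+Dox. The 3 shEHD1+Dox values were nearly equal, and the low control value was that of replicate 3 (log2 fold change 0.35, SE 0.19, edgeR adjusted p = 0.258). Without that replicate the log2 fold change of CDH12 was 0.14. CDH7 was 24.9, 29.7 and 21.2 CPM against 28.7, 30.2 and 27.1 CPM (log2 fold change 0.18, adjusted p = 0.352 by edgeR), and its groups overlapped. CDH24 ranged from 10.9 to 13.4 CPM over all libraries (log2 fold change -0.10). CDH20 was 3.42, 2.56 and 7.57 CPM against 5.09, 4.54 and 5.33 CPM, and only when shNTC+Dox replicate 3 was left out did it pass, with a log2 value of 0.74 (adjusted p = 0.0261 by edgeR). CDH6, CDH9, CDH19 and CDH22 had no count in any library. CDH18 had at most 8 counts and CDH5, the endothelial VE-cadherin, had 3 counts in 1 library.

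The type I cadherins, which include the classical E- and N-cadherin, were nearly silent. CDH1 (E-cadherin) had 2 counts in 1 control library and 0 in the other 5, and CDH2 (N-cadherin) had 3 counts in 1 control library and 0 in the other 5. A fall from such counts could not be detected at this depth, so the counts of 0 in shEHD1+Dox do not show a change. CDH4 and CDH15 had at most 8 and 9 counts. CDH3 (P-cadherin, chr16:68636189-68727468, plus strand) was the type I cadherin deep enough to test, at 58, 59 and 86 counts in shNTC+Dox against 42, 25 and 44 counts in shEHD1+Dox. Its level was 2.20, 2.13 and 3.85 CPM against 1.47, 1.02 and 1.42 CPM. CDH3 fell 2.07-fold (log2 fold change -1.05, SE 0.30, edgeR adjusted p = 0.0453), and the highest control value was that of replicate 3. Without that library the log2 fold change was -0.72 and the adjusted p 0.0812. The call was lost in 7 of 12 alternatives, including each fit without 1 of the shEHD1+Dox libraries (adjusted p from 0.103 to 0.125), the fit without shNTC+Dox replicate 1 (0.0611) and the fit without the count filter (0.0602). In CDH3, 8.4% of exon bases were shared with an overlapping gene, and the library kit does not keep strand.

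**Figure D2:**
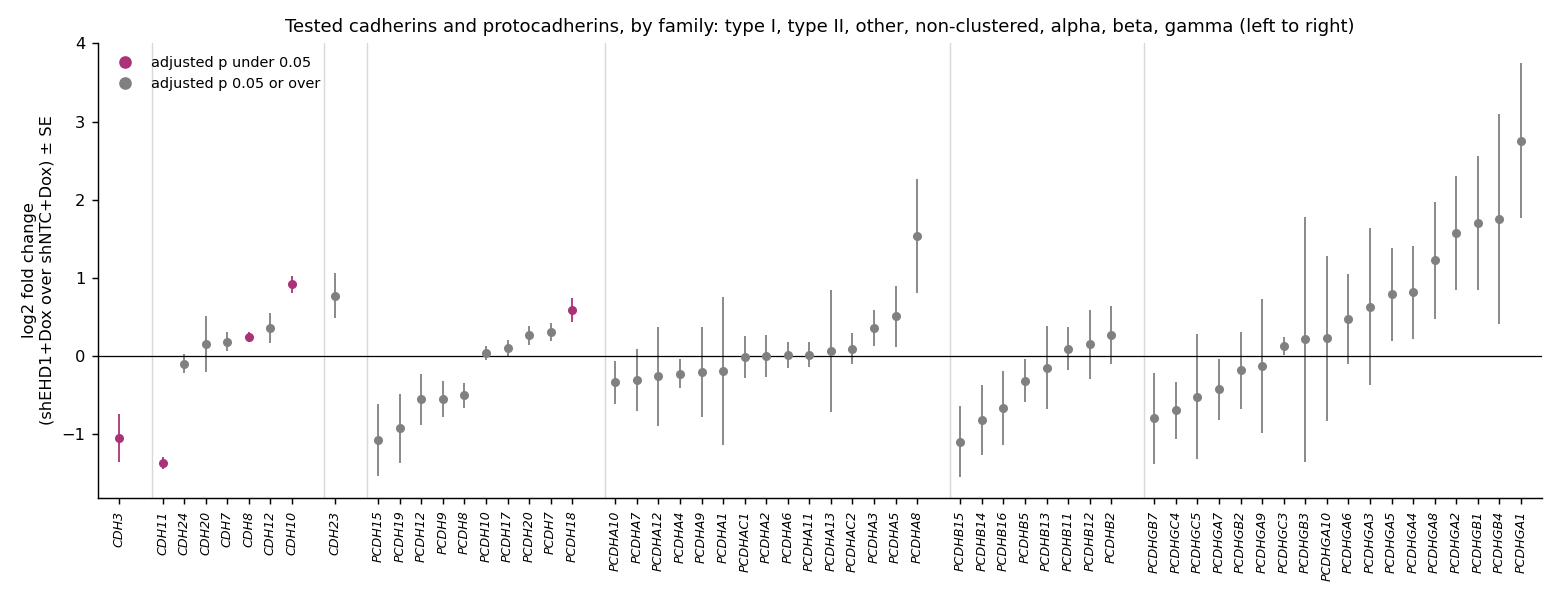
Log2 fold change of shEHD1+Dox over shNTC+Dox with its SE (vertical axis) for the 60 tested members, in blocks by family from left to right: type I, type II and other cadherins, non-clustered protocadherins, then the alpha, beta and gamma clusters. Coloured points passed an adjusted p of 0.05. CDH11 and CDH10 have short error bars, whereas PCDHGA1 at the far right, with the highest value of all at 2.75, has an SE of 0.99.

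Since counts depend on transcript length, levels of different genes were compared as CPM per kilobase of exon. In shNTC+Dox the highest was PCDHGC3 at 22.4 ± 3.45 (SD, n = 3), followed by CDH11 at 19.4 ± 0.86, PCDH10 at 14.9 ± 1.12 and CDH12 at 11.3 ± 3.23. Of the exon bases of PCDHGC3, 40.1% are shared with other gamma genes, so its level may include their reads. The ranges of mean ± SD overlapped for PCDHGC3 and CDH11 and for PCDH10 and CDH12. These SDs ignore that both genes of a pair were measured in the same libraries, and the differences were not tested. CDH8 followed at 5.88, then PCDH7 at 5.34, PCDH17 at 4.98, PCDH8 at 4.36, CDH24 at 3.36 and CDH10 at 3.19. In shEHD1+Dox the level of CDH11 per kilobase was 7.50 ± 0.62, below that of PCDHGC3 (24.5), PCDH10 (15.3) and CDH12 (14.5), and that of CDH10 was 6.04 ± 0.56.

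**Figure D3:**
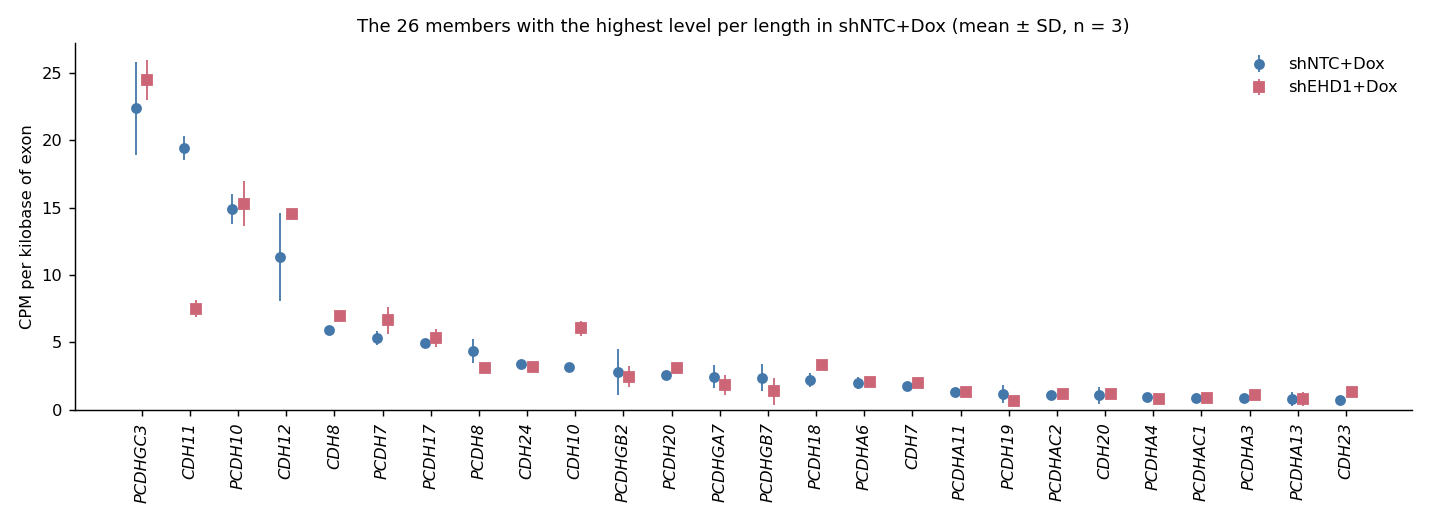
CPM per kilobase of exon (vertical axis, linear from 0, mean ± SD of 3 libraries) for the 26 members with the highest level in shNTC+Dox, in that order, with circles for shNTC+Dox and squares for shEHD1+Dox. CDH11 is second in shNTC+Dox at 19.4 and drops to 7.50, while the group means of PCDHGC3 (22.4 and 24.5) and those of PCDH10 (14.9 and 15.3) differ by less than the spread.

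Because type I and type II cadherins share the catenin-binding tail, their relative amounts were also expressed as a share of their summed CPM per kilobase. CDH11 took 40.4, 41.6 and 43.5% of that sum in shNTC+Dox against 18.4, 19.1 and 16.7% in shEHD1+Dox. It was the largest single contributor in every control library and was exceeded by CDH12 in every shEHD1+Dox library. That order depends on the merged exon lengths used, 13275 bases for CDH11 and 5650 for CDH12. In CPM, without the length, CDH11 stayed above CDH12 in every shEHD1+Dox library (90.1 to 105.3 against 81.8 to 81.9). CDH12 held 24.1% ± 5.29 and 34.9% ± 0.67 (SD, n = 3), CDH10 6.90% ± 0.62 and 14.5% ± 1.11, and CDH8 12.7% ± 0.61 and 16.7% ± 0.86. Shares of a fixed sum rise when another falls, and the level of CDH12 itself did not pass the test. The sum was 46.5 ± 3.61 CPM per kilobase in shNTC+Dox against 41.5 ± 0.79 in shEHD1+Dox.

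**Figure D4:**
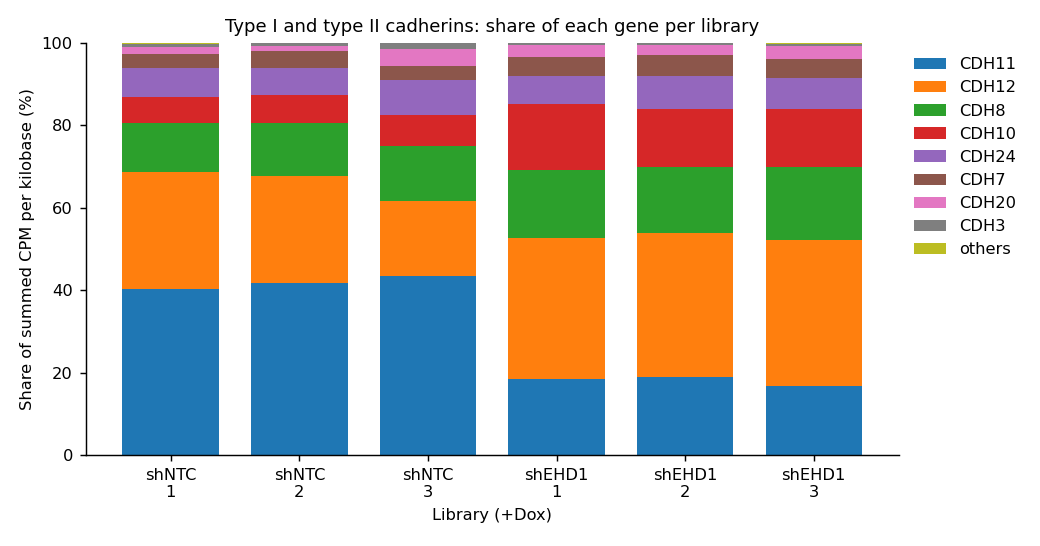
Share of each gene in the summed CPM per kilobase of the type I and type II cadherins (vertical axis, percent) in each of the 6 libraries (horizontal axis). The lowest segment, CDH11, covers 40.4 to 43.5% of the bar in the controls and 16.7 to 19.1% in shEHD1+Dox, and the segments of CDH10, CDH8 and CDH12 are larger in shEHD1+Dox.

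Cadherins outside these types were mostly at 0, since CDH13, CDH16 and CDH17 had no count in any library and CDH26 had at most 9. CDH23, a long cadherin of the tip links of hair cells, was measured at 16.6, 17.5 and 7.79 CPM in shNTC+Dox against 25.95, 20.3 and 25.5 CPM in shEHD1+Dox. The groups did not overlap but the change did not pass (log2 fold change 0.77, SE 0.28, edgeR adjusted p = 0.109), and the low control value was again replicate 3. Without it the log2 fold change was 0.49 with an adjusted p of 0.0174. Of its exon bases 18.9% overlapped another gene.

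Among the 11 non-clustered protocadherins, 10 were tested and PCDH18 passed. PCDH18, a delta protocadherin on chromosome 4 (chr4:137518918-137532494, minus strand), was 15.8, 17.4 and 11.1 CPM in shNTC+Dox against 21.04, 23.6 and 22.1 CPM in shEHD1+Dox. It was 1.504-fold higher (log2 fold change 0.59, SE 0.16, edgeR adjusted p = 0.0349). The lowest library was shNTC+Dox replicate 3, without which the log2 fold change was 0.42 and the call was kept. The call was lost without shNTC+Dox replicate 1 (adjusted p 0.0649) and without any 1 of the shEHD1+Dox libraries (adjusted p from 0.0807 to 0.102).

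Among the other delta protocadherins, PCDH8 fell just short of the threshold, and PCDH7 and PCDH9 lay further from it. PCDH8, an activity-regulated protocadherin of neurons, was 25.3, 25.1 and 17.1 CPM against 15.8, 14.5 and 17.3 CPM. Its groups overlapped through shNTC+Dox replicate 3, which sat at the level of the shEHD1+Dox libraries (log2 fold change -0.50, SE 0.16, edgeR adjusted p = 0.0593). Without that replicate PCDH8 passed at -0.67 (adjusted p = 0.00155). PCDH7 was 69.4, 62.1 and 75.2 CPM against 77.2, 100.3 and 79.0 CPM (log2 fold change 0.31, adjusted p = 0.10 by edgeR). The groups of PCDH7 did not overlap, and 12.4% of its exon bases were shared with another gene. PCDH9 was 2.43 to 3.29 CPM in shNTC+Dox against 1.74 to 2.28 CPM in shEHD1+Dox (log2 fold change -0.55, adjusted p = 0.128 by edgeR).

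PCDH10, the second most expressed protocadherin per length, did not pass and its groups overlapped, at 160.5, 155.7 and 138.7 CPM against 140.3, 174.3 and 152.3 CPM (log2 fold change 0.04, SE 0.09). PCDH17 likewise ranged from 39.8 to 44.1 CPM and from 39.0 to 50.2 CPM. PCDH19, an X-linked gene of epilepsy, was 7.30, 7.91 and 19.2 CPM in shNTC+Dox against 5.23, 8.54 and 4.36 CPM in shEHD1+Dox, with replicate 3 as the high control (log2 fold change -0.92, adjusted p = 0.203 by edgeR). Without that library its log2 fold change was -0.34. PCDH12 (log2 fold change -0.56) and PCDH15 (-1.08) were at most 2.62 CPM in any library and did not pass. PCDH20 had a log2 fold change of 0.26, but 91.3% of its exon bases are shared with an overlapping gene, so its reads cannot be assigned with certainty. PCDH1 had 0 to 16 counts and was not tested.

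In all, shNTC+Dox replicate 3 lay more than 1.5-fold outside the range of replicates 1 and 2 for 14 of the 60 tested members. It was below them for 5, namely CDH12, CDH23, PCDHGA8, PCDHGB3 and PCDHGC5. It was above them for 9, among them CDH3, CDH20, PCDH19, PCDHGB2 and PCDHGB7. When it was left out 7 of 58 tested members passed the adjusted p (12.1%), against 21.8% of all genes in the same fit, with CDH20, CDH23 and PCDH8 added and CDH3 lost.

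The clustered protocadherins made up 54 of the 88 members. Summed over its 16 members, the alpha cluster was 67.4 ± 4.48 CPM in shNTC+Dox against 68.0 ± 4.18 CPM in shEHD1+Dox (SD, n = 3), a log2 ratio of 0.01. The beta cluster, also of 16 members, was 9.41 ± 1.75 and 8.47 ± 1.24 CPM. The gamma cluster of 22 members was 178 ± 7.87 and 193 ± 9.82 CPM, a log2 ratio of 0.12. The highest and lowest library differed by 1.16 times for the alpha sum, 1.497 times for the beta sum and 1.19 times for the gamma sum.

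Apart from PCDHGC3, most gamma members varied widely between libraries. PCDHGC3, which makes up most of the gamma sum, had a biological coefficient of variation of 10.4%, and the 18 tested gamma members had a median of 62.4%, and 17 of them lay above the value that the trend over all genes gave at their level (median 30.5%). Over the 6 libraries, 14 of 18 gamma members spanned at least 4-fold or had a library at 0, against 5 of 15 alpha members and 0 of 8 beta members. Annotated gamma genes share 27.5 to 64.4% of their exon bases with other genes, including the constant exons. Without PCDHGC3 the other 21 members summed to 46.5, 52.0 and 70.4 CPM in shNTC+Dox, against 41.7, 62.2 and 77.3 CPM in shEHD1+Dox, and the highest and lowest library then differed by 1.85 times. Reads from shared exons cannot be given to 1 member, and how the deposited counts divided them is not given in the sources used here.

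PCDHGC3, a C-type gamma protocadherin, held most of the gamma counts, at 73.7, 72.1 and 58.7% in shNTC+Dox against 77.2, 68.1 and 61.8% in shEHD1+Dox. Its level was 130.5, 134.0 and 99.9 CPM against 141.0, 132.7 and 124.8 CPM, and the groups overlapped (log2 fold change 0.13, SE 0.11). Without shNTC+Dox replicate 3 the log2 fold change of PCDHGC3 was 0.0045. PCDHGB2 and PCDHGA7 followed at like levels. PCDHGB2 was 11.7, 6.46 and 22.5 CPM against 12.8, 7.56 and 15.2 CPM. PCDHGA7 was 13.1, 8.70 and 18.2 CPM against 5.20, 12.02 and 12.4 CPM, and PCDHGB7 was 8.59, 9.17 and 17.6 CPM against 2.84, 5.19 and 12.1 CPM. For these 3 genes shNTC+Dox replicate 3 was the highest library and the groups overlapped. Of the alternatives, only the replicate block gave PCDHGB7 a call.

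PCDHGA1 had the largest fitted change of any member, at a log2 fold change of 2.75 (SE 0.99), and did not pass (edgeR adjusted p = 0.124). Its libraries were 0.304, 2.20 and 0.403 CPM in shNTC+Dox against 2.28, 12.8 and 5.11 CPM in shEHD1+Dox. The highest control and the lowest shEHD1+Dox library nearly met, and values within each group spanned 7.25-fold and 5.61-fold. PCDHGA1 also passed with the Wald test of DESeq2 (log2 fold change 2.79, adjusted p = 0.0432). With the replicate block in edgeR its log2 fold change was 2.96 (adjusted p = 0.00423), though whether the replicate numbers pair the libraries is not settled. By edgeR it passed without shNTC+Dox replicate 2, at a log2 fold change of 4.23 (adjusted p = 0.0483), together with PCDHGA2, PCDHGA5, PCDHGA8 and PCDHGB4. With that library left out 9 of 57 tested members passed (15.8%), against 12.5% of all genes in the same fit, and 7 of them changed by 2-fold (12.3%), against 2.75% of all genes. In that fit PCDHGA1, PCDHGA2, PCDHGA8 and PCDHGB4 had under 10 counts in both remaining controls. They thus passed the filter only through the shEHD1+Dox libraries, where they were high, and no conclusion about the members is drawn from these shares.

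Further gamma genes were high in single libraries. PCDHGA12, not tested, had 124 counts in shEHD1+Dox replicate 2 and at most 8 in any other library. PCDHGB5, not tested either, had 34 counts in shNTC+Dox replicate 2 and at most 2 elsewhere. PCDHGB3 was 4.41 CPM in shNTC+Dox replicate 2, 4.17 CPM in shEHD1+Dox replicate 3 and 0 in shEHD1+Dox replicate 1. PCDHGA10 was 4.94 CPM in shNTC+Dox replicate 1 and 6.39 CPM in shEHD1+Dox replicate 1 but 0.808 to 1.254 CPM in the other 4 libraries. PCDHGB4 was 0 in 2 control libraries and 1.63 CPM in the third, against 0.981 to 2.94 CPM in shEHD1+Dox. PCDHGB5 was singled out after its values were seen.

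**Figure D5:**
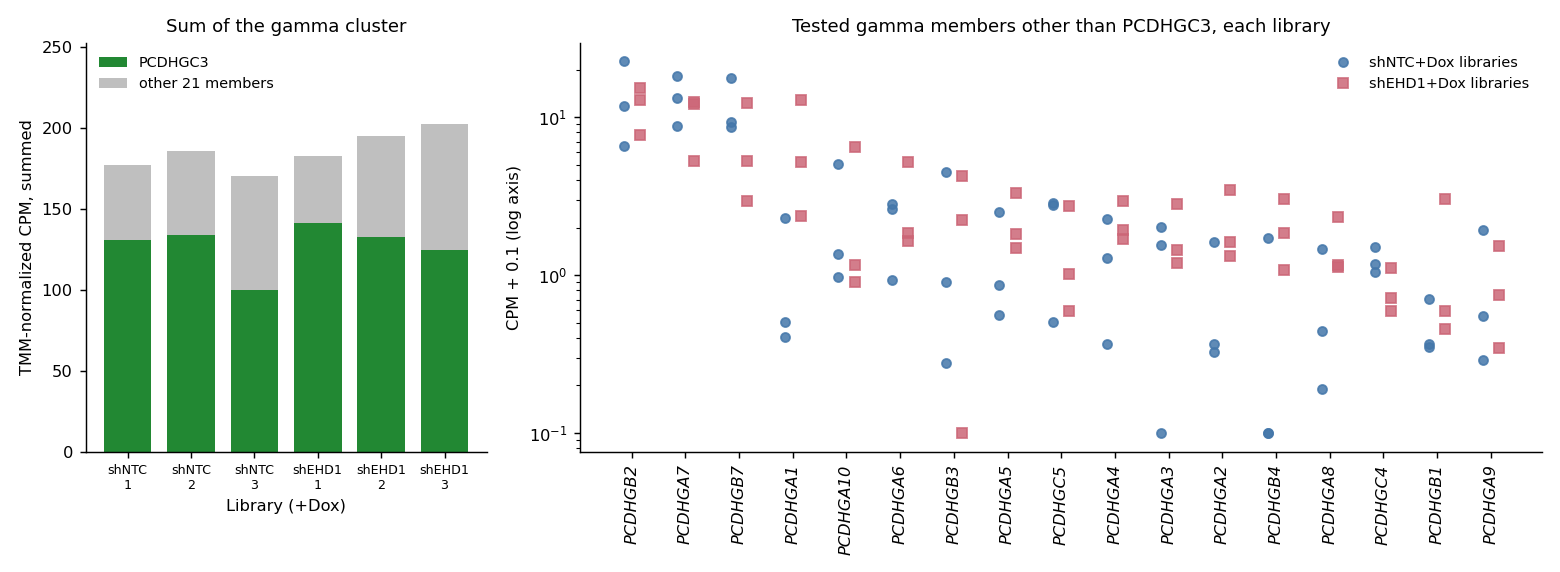
Left, summed CPM of the gamma cluster in each library (linear axis from 0), split into PCDHGC3 and the other 21 members. Right, CPM + 0.1 on a log axis for the 17 other tested gamma members, with 1 point per library (circles shNTC+Dox, squares shEHD1+Dox). The sums lie between 170 and 202 CPM, while most single members spread over more than 4-fold with both groups intermixed.

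The alpha members were steadier. PCDHA6 was 14.6, 13.0 and 9.22 CPM against 12.7, 11.7 and 12.8 CPM, and PCDHA4 was 10.3, 13.7 and 13.5 CPM against 11.7, 12.4 and 8.08 CPM. PCDHA11 had a log2 fold change of 0.02, and the C-type genes PCDHAC1 and PCDHAC2 had -0.02 and 0.09. PCDHA3, at 5.19 to 7.68 and 5.98 to 10.6 CPM, had 0.36. PCDHA13 and PCDHA12 spanned 6.46-fold and 4.58-fold over the 6 libraries with the groups intermixed. PCDHA8 had the largest alpha change at 1.53 (SE 0.73, edgeR adjusted p = 0.193), carried by shEHD1+Dox replicate 3 at 3.42 CPM. Alpha genes share 21.4 to 100% of their exon bases with other genes.

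Beta genes have a single coding exon and share less sequence by position, 0 to 43.9% of exon bases. They were low: of 16, 8 were tested, and none exceeded 2.29 CPM in any library. PCDHB15 had a log2 fold change of -1.10 (adjusted p = 0.130 by edgeR) and passed the filter through the control libraries only. PCDHB14 had -0.82, PCDHB5 -0.32, PCDHB11 0.09 and PCDHB2 0.27. None passed.

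By position, 61 of the 88 members were on chromosome 5 and 8 on chromosome 16. CDH8 and CDH11 are neighbours on chromosome 16, 2.91 Mb apart with no tested gene between them, and CDH8 rose where CDH11 fell. CDH12 and CDH10 are neighbours on chromosome 5, 1.63 Mb apart, again with no tested gene in between. PCDH10 and PCDH18 lie 4.31 Mb apart on chromosome 4 with 3 tested genes between them. No tested gene lay within 500 kb of CDH11, CDH10, CDH8 or PCDH18. Around CDH3, 14 genes were tested and 2 of them passed the adjusted p, against 17.3% of all genes tested. These were SLC7A6 (log2 fold change -0.30) and DERPC (-3.66), which fell.

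For the members that rose, the 250 bases before the RefSeq start (GRCh38.p14) are shown to set the starts of these genes side by side. A promoter was matched for 68 of the 88 members, among them CDH10, CDH8 and PCDH18. None was matched for CDH11 or CDH3, so the members that fell could not be set beside them. The sequences run 5′ to 3′ on the strand of the gene, from chr5:24644979-24645228, chr16:62036439-62036688 and chr4:137532495-137532744, all on the minus strand. The stretch of CDH8 lies inside the gene span given above, whereas those of CDH10 and PCDH18 lie just outside theirs. Capitals mark GGAAGGAA, a pair of the GGAA cores that ETS factors such as FLI1 recognise.
CDH10: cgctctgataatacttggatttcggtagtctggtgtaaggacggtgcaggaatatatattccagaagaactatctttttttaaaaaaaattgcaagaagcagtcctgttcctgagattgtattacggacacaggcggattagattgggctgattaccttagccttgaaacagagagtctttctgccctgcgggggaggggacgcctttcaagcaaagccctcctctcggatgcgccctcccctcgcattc
CDH8: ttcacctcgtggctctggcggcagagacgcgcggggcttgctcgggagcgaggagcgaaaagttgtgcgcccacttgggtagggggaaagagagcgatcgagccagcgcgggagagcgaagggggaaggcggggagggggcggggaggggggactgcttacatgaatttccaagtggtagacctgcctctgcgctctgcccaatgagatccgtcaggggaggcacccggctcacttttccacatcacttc
PCDH18: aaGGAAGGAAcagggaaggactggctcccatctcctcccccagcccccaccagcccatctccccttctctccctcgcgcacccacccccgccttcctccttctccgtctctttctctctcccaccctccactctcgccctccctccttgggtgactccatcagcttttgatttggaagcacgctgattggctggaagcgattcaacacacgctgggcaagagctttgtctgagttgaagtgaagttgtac
The G and C content was 47.6% in CDH10, 64.0% in CDH8 and 58.4% in PCDH18, against a median of 58.0% over 27305 promoters of the same length. On either strand, GGAAGGAA was found in PCDH18, 248 bases before the start, and in 5 of 68 members (7.35%), against 2.99% of all promoters. CACCTG, an E-box read by SNAIL and ZEB factors, was in 7 of 68 members (10.3%) and in 17.5% of all promoters, and in none of the 3 shown. TATAAA was in 7 of 68 members (10.3%) and 11.1% of all promoters, and in none of the 3. A match is a description of the letters only.

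Genes that work with cadherins were counted from 5 lists, which hold no member. Together 21 of their genes passed an adjusted p under 0.05. Among 21 catenins and junction partners, 16 were tested, 2 rose and 4 fell, with a median log2 fold change of -0.18. Plakophilin 2 (PKP2, -0.75), the receptor phosphatase PTPRF (-0.70), plakophilin 4 (PKP4, -0.61) and afadin (AFDN, -0.39) fell. The core catenins did not pass: CTNNB1 was 310.5, 317.1 and 311.7 CPM against 275.0, 288.8 and 282.4 CPM with separate groups (log2 fold change -0.15, SE 0.06). CTNND1, which binds the juxtamembrane part of cadherin tails, was 234.5, 196.4 and 241.3 CPM against 181.6, 109.5 and 180.7 CPM (log2 fold change -0.51, SE 0.20), and CTNNA1 had 0.04.

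Among 27 other genes of the cadherin superfamily, 16 were tested, 4 rose and 2 fell, with a median of 0.07. The large cadherin DCHS2 fell (-0.96) and so did calsyntenin 2 (CLSTN2, -0.76), while FAT3 rose (0.95). PCDH11X (0.67) and its near-identical copy PCDH11Y (0.68) rose, but reads of these copies can be exchanged, so they are uncertain. With the copies counted once, 3 of 15 tested genes rose and 2 fell (33.3%). All 7 desmosomal cadherins of the list (DSC1 to DSC3, DSG1 to DSG4) had no count in any library.

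Among 16 genes of cadherin shedding and turnover, 15 were tested, 3 rose and none fell, with a median of 0.12. These were the matrix proteases MMP9 (1.48) and MMP14 (0.59) and the gamma-secretase subunit NCSTN (0.24). ADAM10, the main sheddase of E- and N-cadherin, was 97.7, 97.7 and 93.4 CPM against 107.6, 117.0 and 110.9 CPM and missed the threshold (log2 fold change 0.22, adjusted p = 0.0502 by edgeR).

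Among 15 repressors of CDH1 and factors of epithelial-mesenchymal transition, 10 were tested, 1 rose and 2 fell, with a median of -0.29. ZEB1 rose from 0.570, 1.19 and 0.358 CPM to 2.92, 1.59 and 2.1 CPM (log2 fold change 1.62, edgeR adjusted p = 0.0348). PRRX1 fell from 9.73, 8.70 and 9.58 CPM to 1.51, 5.48 and 3.88 CPM (log2 fold change -1.37, edgeR adjusted p = 0.0472), and TCF3 fell (-0.35). Without shNTC+Dox replicate 3 the fall of PRRX1 did not pass (-1.36, adjusted p = 0.1415 by edgeR). ZEB2, far higher than ZEB1 in counts, had a log2 fold change of -0.08 and did not pass. All 12 regulators of the clustered promoters were tested, of which the repressor REST (0.56), the cohesin loader NIPBL (0.42) and the cohesin release factor WAPL (0.34) rose and none fell, with a median of 0.09. CTCF, which binds these promoters, had -0.10 and did not pass.

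Without shNTC+Dox replicate 3, 20 of the 21 listed genes kept their call, with PRRX1 lost and JUP and ADAM15 gained, and PTPRF and CLSTN2 were at -0.88 and -0.92. These lists are read against the 17.3% of all genes that passed. The shares were 37.5% for the junction partners and for the other cadherin superfamily, and 20.0% for shedding. They were 30.0% for the repressors and transition factors together and 25.0% for the regulators of the clusters. No list was tested as a set. In bulk RNA, fewer cells with a transcript and less of it per cell cannot be told apart.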

How the data were processed

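The authors sequenced unstranded TruSeq libraries as paired ends on a NextSeq550 and deposited whole-number read counts per gene, not normalized. Their methods name hisat2, Ensembl annotations and Stringtie, whereas the submitters' processing notes name STAR 2.7.3a, DESeq2 and hg38; how gene counts were derived is not given in the sources used here. Gene positions and exons came from GENCODE, in which 60357 of 60676 identifiers (99.5%) were found.

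The 16785 genes that reached 10 counts in 3 or more libraries were fitted by edgeR 4.0.16 (R 4.3.3; TMM, robust quasi-likelihood) with Benjamini-Hochberg adjustment over all of them. The SE is the size of the log2 fold change divided by the square root of F. CPM per kilobase used merged exons. The permutation test used log2(CPM + 0.1). The tests were checked on simulated data. Members and lists were chosen with earlier results of these data known. Named members had an adjusted p under 0.05, a group mean of at least 1 CPM, or were CDH1, CDH2, CDH5 or CDH11; the other members in the text, such as PCDH15, PCDHB15, PCDHGB5, PCDH1, CDH4, CDH15, CDH18, CDH26 and those without counts, were added after their values were seen. From each list at most the 4 largest changes past the adjusted p were named, with a few central genes added the same way.

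Alternatives were other size factors, other filters, DESeq2 1.42.0, the replicate block, a fold threshold within the model, summed clusters and each library left out.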

Additional observations from a re-analysis of the deposited data

How the results depend on the processing

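CDH11 and CDH10 passed in all 12 alternatives. The count of members past the adjusted p was 5, 8 with DESeq2's Wald test (CDH23, PCDH8 and PCDHGA1 added) and 2 to 9 with 1 library left out. The latter were 3.33 to 15.8% of members tested, against 8.05 to 21.8% of all genes in the same fits. With a 2-fold change the count was 2, and 3 with DESeq2's Wald test. It was 1 (CDH11) without the filter on counts or with the fold tested within the model. With 1 library left out it was 1 to 7, or 1.67 to 12.3% of members tested, against 1.78 to 2.75% of all genes. For the other fits the share over all genes is not given here. The highest counts came without shNTC+Dox replicate 2, where PCDHGA1, PCDHGA2, PCDHGA8 and PCDHGB4 passed the filter through the shEHD1+Dox libraries only. The count of listed genes was 21, and 13 to 22 with 1 library left out. The causes were not tested. Over all genes, deviations of same-numbered libraries correlated at 0.07, -0.06 and -0.04, against -0.08 to 0.11 for differently numbered ones. So few libraries cannot settle whether the replicate numbers pair them. With the replicate block 5 members passed (CDH10, CDH11, PCDH18, PCDHGA1 and PCDHGB7), 2 of them by 2-fold, and 17 listed genes.

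Of the named members that passed, 44 values under alternatives kept their call and 16 lost it, and none changed sign. Of those that did not pass, 450 values kept their direction without a call, 14 gained a call and 34 changed sign. Among the gains were PCDHGA1 with the block (2.96) and PCDH8 with 10 counts in every library (-0.50, adjusted p = 0.0477 by edgeR). The changes of sign with the block were PCDHA12 (0.0193), PCDHAC1 (0.0255) and PCDHGB3 (-0.12), and for PCDHA2 the fit without the filter (0.0145) and that with 10 counts in every library (0.0003). With 1 library left out, log2 fold changes ran from -0.11 to 0.13 for PCDHA11, -0.64 to 0.80 for PCDHA12, -0.46 to 0.56 for PCDHA13, -0.20 to 0.17 for PCDHA2, -0.15 to 0.16 for PCDHA6, -0.18 to 0.33 for PCDHAC1, -0.0656 to 0.29 for PCDHAC2, -0.0938 to 0.23 for PCDHB11, -1.34 to 1.38 for PCDHGA10, -0.29 to 0.76 for PCDHGA6, -0.53 to 0.39 for PCDHGB2, -0.80 to 2.06 for PCDHGB3, -0.0513 to 0.11 for PCDH10 and -0.13 to 0.74 for CDH20. Members under 10 counts could not be compared at this depth.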
